A study of Mus musculus with 16 samples.

Results

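The subject is a cluster of 8 neighbouring Trim genes on mouse chromosome 7, chosen by symbol: Trim34a, Trim12a, Trim34b, Trim12c, Trim30b, Trim30c, Trim30a and Trim30d, listed here in their order along the chromosome. They were chosen with their values in these samples known, so their own differences between genotypes are given as a description, with no p-value. Of the 8 genes, 7 had a row among the 24420 features of each expression table, and 5 of them (Trim34a, Trim12a, Trim12c, Trim30a and Trim30d) had enough reads for a comparison. Trim30c had no row in the tables used here.

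The samples were small intestinal RNA of mice labelled as strain C57B6. The enterocyte experiment compared primary enterocytes, the absorptive cells of the gut lining, of 4 WT and 5 Mfge8 null libraries. Mfge8 encodes a secreted glycoprotein that bridges cells through integrins. The intestine experiment compared small intestinal tissue of 4 WT and 3 Cd36 null libraries, where Cd36 encodes a fatty acid receptor. The alleles, the age and sex of the mice, their number of backcrosses and whether WT mice were littermates were not given in the labels.

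TRIM proteins are ubiquitin ligases with a RING domain, B-boxes and a coiled coil. Many also end in a B30.2 domain, with which primate TRIM5 grips the capsid of an incoming retrovirus. The mouse genes Trim12a, Trim12c and the Trim30 group are the rodent relatives of TRIM5, and Trim34a and Trim34b are relatives of human TRIM34, a partner of TRIM5. Many genes of the family are induced by interferon, and they are expressed in immune cells as well as in epithelia.

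In RefSeq annotation of GRCm38 (mm10), the cluster spanned 263 kb, from 104244448 to 104507853 on chromosome 7. Trim34a (104244448 to 104262244) and Trim34b (104329471 to 104336617) lie on the plus strand. Trim12a (104299893 to 104315558), Trim12c (104338754 to 104353358), Trim30b (104355398 to 104358646), Trim30c (104379117 to 104400852), Trim30a (104409025 to 104465193) and Trim30d (104470014 to 104507853) lie on the minus strand. Mfge8 lies on the same chromosome, from 79133768 to 79149060, and 25.1 Mb separate its end from the start of the cluster. Cd36 lies on chromosome 5.

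The promoters of the cluster are shown for the pairs of close relatives that differed in the data, Trim12a with Trim12c and Trim30d with Trim30a. Each sequence runs from 250 bases before to 50 bases after a RefSeq transcript start (GRCm38.p6), which need not be the outermost annotated start of the gene, written 5′ to 3′ on the strand of the gene. All 4 are on the minus strand: Trim12a at chr7:104315446-104315745, Trim12c at chr7:104353300-104353599, Trim30d at chr7:104507800-104508099 and Trim30a at chr7:104465144-104465443. Capitals mark a match to the core of the interferon-stimulated response element, searched on both strands as GAAA, any 2 bases (NN) and GAAA again, or in reverse complement TTTC, NN and TTTC.
Trim12a: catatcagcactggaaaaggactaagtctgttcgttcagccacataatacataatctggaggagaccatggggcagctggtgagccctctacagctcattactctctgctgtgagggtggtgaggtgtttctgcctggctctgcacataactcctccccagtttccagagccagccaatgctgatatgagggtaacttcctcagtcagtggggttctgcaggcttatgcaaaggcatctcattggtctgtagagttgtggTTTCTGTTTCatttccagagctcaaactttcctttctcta
Trim12c: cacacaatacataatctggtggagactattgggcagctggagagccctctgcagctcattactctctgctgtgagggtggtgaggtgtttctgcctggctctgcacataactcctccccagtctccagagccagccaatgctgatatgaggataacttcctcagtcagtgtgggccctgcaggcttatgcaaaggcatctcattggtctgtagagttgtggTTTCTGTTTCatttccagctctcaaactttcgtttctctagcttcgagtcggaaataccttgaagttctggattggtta
Trim30d: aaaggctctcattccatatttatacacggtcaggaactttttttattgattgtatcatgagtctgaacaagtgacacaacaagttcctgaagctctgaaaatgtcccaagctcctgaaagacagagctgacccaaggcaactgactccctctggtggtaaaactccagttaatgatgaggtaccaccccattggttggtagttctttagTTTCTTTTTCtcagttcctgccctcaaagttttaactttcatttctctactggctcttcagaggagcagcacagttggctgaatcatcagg
Trim30a: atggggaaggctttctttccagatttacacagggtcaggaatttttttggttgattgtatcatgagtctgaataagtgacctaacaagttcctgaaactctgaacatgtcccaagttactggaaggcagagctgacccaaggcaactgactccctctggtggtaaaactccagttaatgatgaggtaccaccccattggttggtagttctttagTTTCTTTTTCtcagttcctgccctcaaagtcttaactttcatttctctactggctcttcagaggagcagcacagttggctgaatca

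The same core was found in 5 of the 8 promoter windows. Trim12a and Trim12c both carried TTTCTGTTTC, beginning at base 11 of the transcript in Trim12a and at -29 in Trim12c. Trim30d and Trim30a both carried TTTCTTTTTC, at -41 and at -36. Trim34a carried TTTCAGTTTC, also from base 11 of its transcript. No match lay in the windows of Trim30b, Trim30c and Trim34b. Of all 32851 RefSeq promoter windows of this length, 1131 (3.44%) held a match, as did 4 of 58 windows (6.9%) of other Trim genes. Over the aligned stretch, the Trim12a and Trim12c promoters were 94.6% identical over 261 bases, and the Trim30a and Trim30d promoters 93.9% over 294 bases.

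Expression was measured by 3' tag sequencing, which reads the end of each transcript, and levels are normalised reads, that is, reads divided by a size factor for each library. Enterocyte libraries held 1618369 to 2459812 reads and intestine libraries 850297 to 1000694. Libraries of a genotype in the intestine experiment differed by about as much as counting alone gives (chi-square per degree of freedom 0.9873 to 1.117, against 6.259 to 20.16 in enterocytes). Of the 9 intestine pairs within a genotype, 5 had a chi-square p under 0.05, so small differences beyond counting were present. The intestine libraries were counted as 1 sample per genotype, which leaves no test, and their values are given as ranges. The targeted genes were lower in the libraries labelled null. Mfge8 was at 14.8 ± 6.70 (SD, n = 4) in WT and 3.45 ± 2.43 (SD, n = 5) in null enterocytes (log2 change -1.87, SE 0.46, limma adjusted p = 0.0362). That call was lost when WT 1, WT 2, WT 3, null 1, null 2, null 3 or null 5 was left out. Cd36 was at 111 to 116 in WT and 6.48 to 16 in Cd36 null intestine. All 8 enterocyte markers (Vil1, Alpi and others) were detected in the enterocyte libraries, where the 5 stromal markers summed to at most 4.16 (Col1a1 and Lum at 0). The 5 goblet cell markers summed to 7412 to 19354 in the same libraries, with overlap between genotypes. In the intestine libraries, the 8 enterocyte markers summed to 27902 to 29096. The 5 stromal markers summed to 9.95 to 33.3 there, and the 4 smooth muscle markers to 0 to 2.78. How much of the gut wall these samples held was not tested.

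Whether reads of near-identical copies could be shared was examined in the last 500 bases of each transcript, where 3' tags lie, with 451 windows of 50 bases per gene. For Trim12a, Trim34a, Trim30a and Trim30d, 0 windows recurred in a transcript of another gene. For Trim12c, 35 windows (7.76%) recurred in Trim5, a gene of the same interval that was not analysed here. For Trim34b, 200 windows (44.3%) recurred in Trim34a, and the end of Trim34b was 98% identical over 500 bases to a stretch of Trim34a, whereas the end of Trim34a aligned with Trim34b over 15 bases. The end of Trim30a was 81.7% identical to Trim30d over 515 aligned bases. Trim34a exons also overlap 609 bases of Gm47248 on the other strand, and the strand setting of the counting was not given in the sources used here. Trim12c exons overlap 100 bases of Gm27995 on the same strand.

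Trim12a, Trim34a and Trim30d were lower in Mfge8 null than in WT enterocytes, and the same 3 genes were lower in Cd36 null than in WT intestine. Trim12a and Trim34a were at or near 0 reads in every null library of both experiments. Trim30d stood at 10.5% of its WT level in Mfge8 null enterocytes and at 37.0% in Cd36 null intestine. Trim12c and Trim30a, which lie between Trim12a and Trim30d, overlapped between genotypes in both experiments. In bulk samples such as these, fewer cells of a type and less RNA per cell cannot be told apart.

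**Figure D1:**
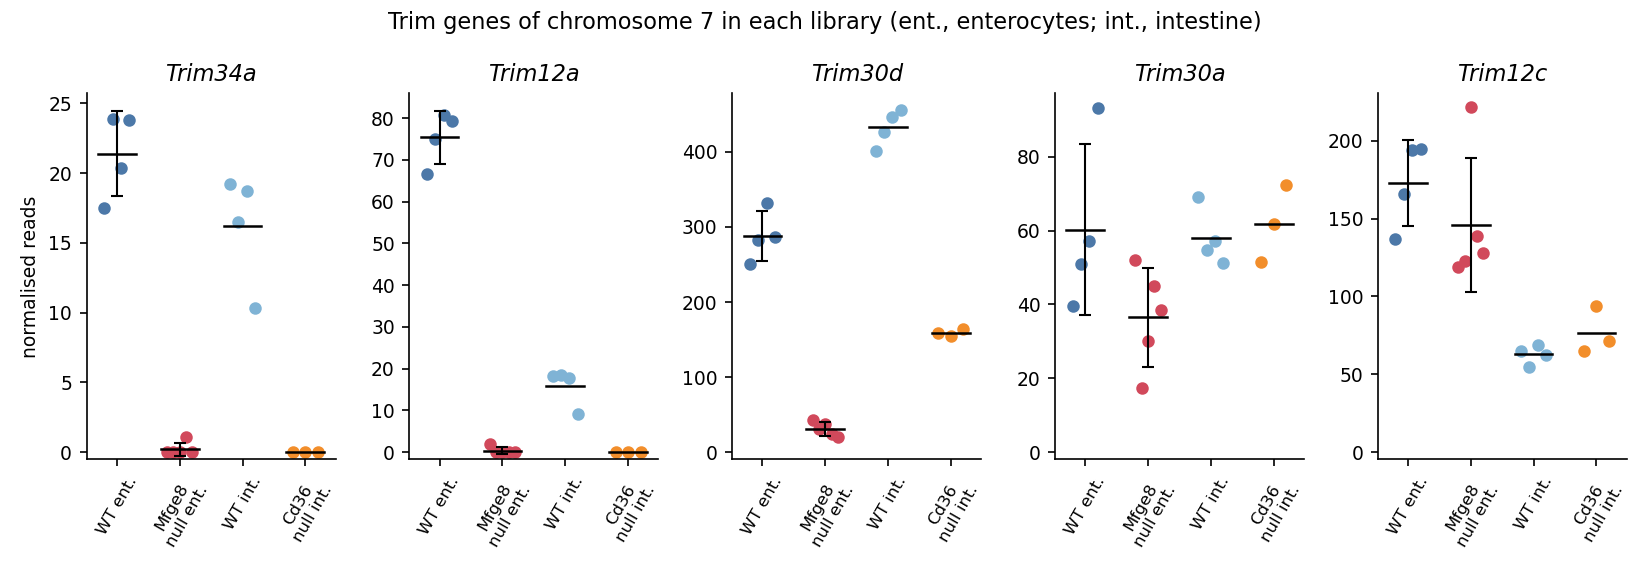
Normalised reads of the 5 members with enough reads, by library, in WT and Mfge8 null enterocytes and in WT and Cd36 null intestine; points are libraries, and bars give the mean ± SD in enterocytes and the mean alone in intestine. Trim12a and Trim34a sit at or near 0 in every null library, Trim30d is lower in every null library, and Trim12c and Trim30a overlap between genotypes.

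Trim12a, a Trim5-related gene, was at 66.6, 74.9, 80.7 and 79.4 normalised reads in WT 1 to 4 enterocytes. It was at 1.96 in Mfge8 null 1 and at 0 in the other 4 null libraries. All null libraries lay below all WT libraries. The means were 75.4 ± 6.37 (SD, n = 4) and 0.392 ± 0.876 (SD, n = 5), a log2 change of -5.94 (SE 0.42). Summed over libraries, 312 reads in WT stood against 2 in null, so the null level was 0.517% of WT (95% exact binomial interval 0.0623% to 1.88%, counting error only). In intestine, Trim12a was at 18.2, 18.6, 17.7 and 9.24 in WT 1 to 4 and at 0 in all 3 Cd36 null libraries. With 63 WT reads against 0, it was at least 16.6-fold lower in Cd36 null intestine, taking 3 reads over the group as the limit that a count of 0 allows.

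Trim34a, related to human TRIM34, which is induced by interferon, gave the same picture at a lower level in enterocytes. It was at 17.5, 23.9, 20.4 and 23.8 in WT 1 to 4 enterocytes. In Mfge8 null enterocytes it was at 1.07 in null 4 and at 0 in the other 4 libraries, so the groups did not overlap. The means were 21.4 ± 3.06 (SD, n = 4) and 0.214 ± 0.479 (SD, n = 5), a log2 change of -4.27 (SE 0.48). The 88 WT reads stood against 1 null read, a null level of 0.916% of WT (interval 0.0229% to 5.24%). In intestine, Trim34a was at 19.2, 16.5, 18.7 and 10.3 in WT 1 to 4 and at 0 in all 3 Cd36 null libraries. With 64 WT reads against 0, it was at least 16.9-fold lower.

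Trim30d, whose product restricts tick-borne flaviviruses in mouse cells, was the most abundant member in WT samples. It was at 251, 283, 332 and 287 in WT 1 to 4 enterocytes. In Mfge8 null 1 to 5 it was at 43.1, 30.7, 38, 23.6 and 20.5, well apart from the WT libraries. The means were 288 ± 33.4 (SD, n = 4) and 31.2 ± 9.49 (SD, n = 5), a log2 change of -3.21 (SE 0.21). By summed reads (1200 against 157), the null level was 10.5% of WT (interval 8.87% to 12.5%). In intestine, Trim30d was at 401, 427, 446 and 456 in WT 1 to 4 and at 159, 155 and 164 in Cd36 null 1 to 3. These ranges did not overlap either, and the null level was 37.0% of WT (interval 33.4% to 40.9%; log2 difference -1.43).

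Trim30a, known in mouse macrophages as a brake on NF-kB through the degradation of TAB2 and TAB3, was at 39.7, 50.9, 57.2 and 93.3 in WT 1 to 4 enterocytes. In Mfge8 null 1 to 5 it was at 51.9, 17.5, 30, 45 and 38.5. The ranges overlapped, and the gene did not pass the adjusted threshold of 0.05 (60.3 ± 23.2, n = 4, against 36.6 ± 13.4, n = 5; log2 change -0.72, SE 0.30). By summed reads (250 against 188), the null level was 60.6% of WT. Its interval of 49.9% to 73.5% covers counting error only and leaves out the spread between libraries. In intestine it was at 69.2, 54.7, 57.2 and 51.3 in WT 1 to 4 and at 51.6, 61.8 and 72.2 in Cd36 null 1 to 3. The intestine ranges overlapped, and by summed reads the null level was 106% of WT (interval 87.1% to 129%).

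Trim12c, which promotes interferon and NF-kB signalling with TRAF6 in mouse cells, was at 137, 166, 194 and 195 in WT 1 to 4 enterocytes. In Mfge8 null 1 to 5 it was at 119, 123, 222, 139 and 128. The ranges overlapped, with null 3 above every WT library, and the gene did not pass the threshold (173 ± 27.4, n = 4, against 146 ± 43.0, n = 5; log2 change -0.27, SE 0.19). By summed reads (720 against 741), the null level per size factor was 82.9% of WT. Its interval of 74.8% to 92% likewise covers counting error only. In intestine it was at 65.3, 54.7, 68.6 and 62.6 in WT 1 to 4 and at 65.1, 93.7 and 71.2 in Cd36 null 1 to 3. These ranges overlapped too (null level 121% of WT, interval 101% to 145%; log2 difference 0.27). In the windows shared with Trim5, reads of Trim12c cannot be told apart from those of Trim5.

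The remaining members gave almost no reads. Trim30b was at 0 in all 16 libraries. Trim34b gave 1 read, in Mfge8 null 2 (1.1 normalised reads), and 0 elsewhere. A count of 0 allows up to 3 reads, of 17590216 in all enterocyte libraries and of 6334418 in all intestine libraries. Reads of Trim34b cannot be told apart from those of Trim34a in the shared windows.

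**Figure D2:**
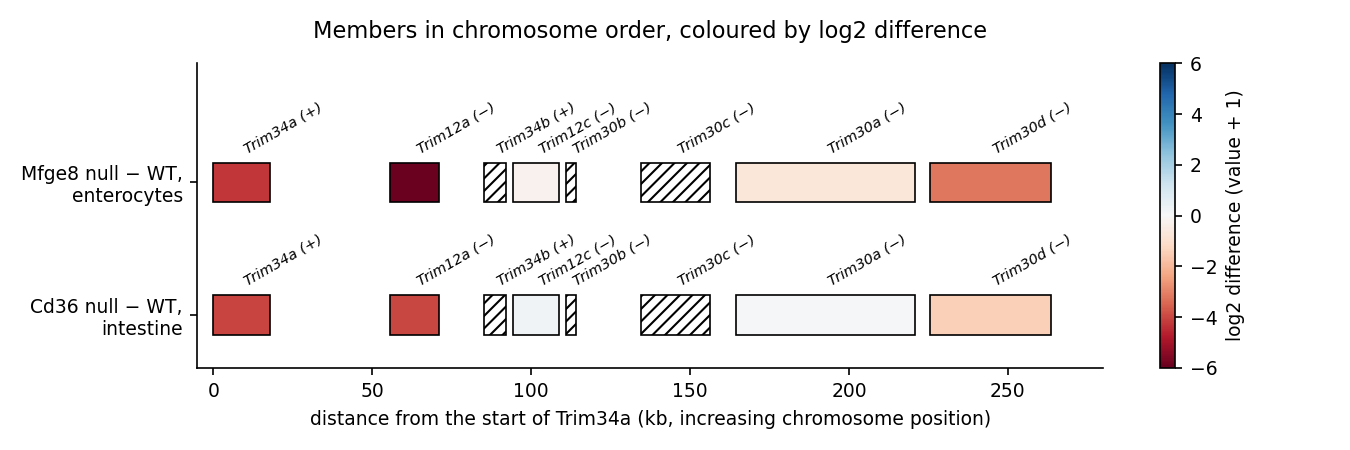
Map of the 8 members over 263 kb of chromosome 7 in RefSeq gene order, with the strand in brackets after each gene name. Colour gives the log2(value + 1) difference of null minus WT in enterocytes and in intestine, and hatched genes (Trim34b, Trim30b and Trim30c) have no value. Trim34a, Trim12a and Trim30d are low in both rows, and Trim12c (-0.27 and 0.27) and Trim30a (-0.72 and 0.08) between them are closer to 0.

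Counted against all genes, 3 of the 5 compared members were called lower in Mfge8 null enterocytes, where 1.63% of the 9432 tested genes were called lower (154 genes, limma with adjusted p under 0.05) and 3.21% were called in either direction. With one library left out that count was 63 without WT 1, 79 without WT 2, 93 without WT 3, 91 without null 3, 97 without null 5 and 100 without null 1. For non-overlap, 3 of 5 members had every null library below every WT library, where 3.07% of tested genes did. In intestine, 3 of 5 members were below -1 on the log2(value + 1) scale, where 1.26% of 9314 genes were (2.44% past 1 in either direction), and 3 of 5 had every null library below every WT library, where 7.91% were. Because the members were chosen from these contrasts, nothing is read from these counts.

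Genes kept in both tables numbered 8560, and 5 of them (0.0584%) were called lower in Mfge8 null and below -1 in Cd36 null: Trim12a, Trim34a, Trim30d, Rps15a and Cd36. Rps15a, a ribosomal protein gene of chromosome 7 (start 118104374), was at 477 ± 120 (n = 4) and 168 ± 56.6 (n = 5) in enterocytes. Cd36, the target of the intestine experiment, was at 135 ± 20.2 (n = 4) in WT and 65.8 ± 25.1 (n = 5) in Mfge8 null enterocytes. That Cd36 call was lost without WT 1, WT 2, WT 3 or null 3. By a criterion set after the values were seen, 6842 genes had a WT mean of at least 10 in both tables. Of these, 2 had a null mean under 1 in both, Trim12a and Trim34a.

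**Figure D3:**
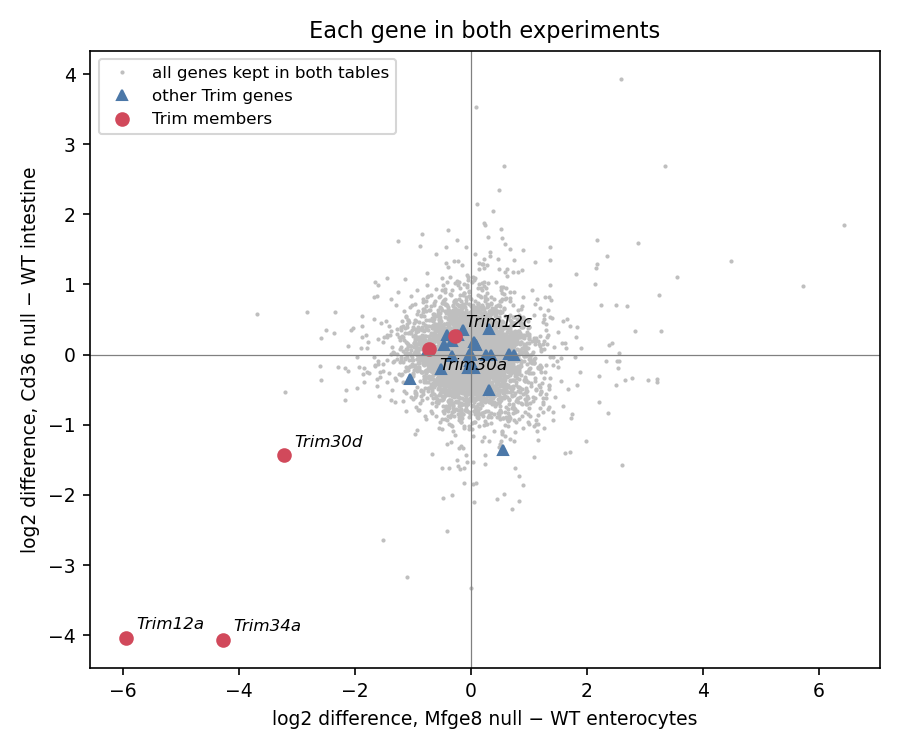
Log2(value + 1) difference of null minus WT in enterocytes against that in intestine for 8560 genes kept in both tables, with the members named. Trim12a (-5.94 and -4.03), Trim34a (-4.27 and -4.07) and Trim30d (-3.21 and -1.43) lie to the lower left, and Trim12c and Trim30a lie in the cloud around 0.

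Within each library, the members were also set against each other, which takes depth out of the comparison. Trim12a stood at 0.408 to 0.487 of Trim12c in WT enterocytes and at 0 to 0.0165 of it in Mfge8 null enterocytes. In intestine the share was 0.148 to 0.340 in WT and 0 in Cd36 null. Trim30d was 3.07 to 6.32 times Trim30a in WT enterocytes and 0.524 to 1.75 times in Mfge8 null enterocytes. In intestine that ratio was 5.81 to 8.88 in WT and 2.27 to 3.09 in Cd36 null. Trim30a over Trim12c overlapped between genotypes, at 0.291 to 0.480 and 0.135 to 0.438 in enterocytes and at 0.820 to 1.06 and 0.659 to 1.01 in intestine. All members with reads together came to 618 ± 80.8 (n = 4) in WT and 215 ± 45.4 (n = 5) in Mfge8 null enterocytes, and to 572 to 608 and 276 to 311 in intestine.

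The order of the members by 3' tag level differed between genotypes. Because each transcript gives about 1 tag, the levels hold roughly without a length correction. In WT enterocytes, Trim30d was first in all 4 libraries, then Trim12c, then Trim12a and Trim30a with overlapping ranges, then Trim34a. In Mfge8 null enterocytes, Trim12c was first in all 5, followed by Trim30a and Trim30d with overlapping ranges. In WT intestine, Trim30d was first in all 4, Trim12c and Trim30a overlapped, and Trim34a and Trim12a overlapped below them. In Cd36 null intestine, Trim30d was still first in all 3, followed by Trim12c and Trim30a, which overlapped.

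Along the chromosome, the other genes around the cluster were set beside the members. Within 5 Mb of the cluster, 46 neighbours were tested in enterocytes. By limma, 2 rose and 2 fell, where 3.21% of all tested genes were called in either direction. An unadjusted limma p under 0.05 was reached by 10 of the 46, and edgeR called 4 and DESeq2 5. The median log2 change of the neighbours was -0.02 (0.00 over all genes). Rab6a, a Golgi trafficking GTPase, fell from 823 ± 184 (n = 4) to 381 ± 83.4 (n = 5; log2 -1.11, limma adjusted p = 0.00206). In intestine Rab6a was at 481 to 546 in WT and 345 to 362 in Cd36 null (log2 difference -0.54), also without overlap. Stard10, a lipid transfer protein gene, fell by 0.75 on the log2 scale (adjusted p = 0.0378, limma), a call lost without any WT library or without null 1, null 2 or null 3. Gpx2-ps1, a pseudogene of a glutathione peroxidase, rose by 1.81 (adjusted p = 0.0109, limma). Gdpd5, a glycerophosphodiester phosphodiesterase gene, rose by 1.44 (adjusted p = 0.026, limma), a call lost without WT 2, WT 3, null 1, null 4 or null 5. In intestine, 0 of 46 kept neighbours were above 1 and 2 were below -1 (median -0.08). These were Gm4759 and Gm1966, named after their values were seen. Gm4759 was at 1.03 to 7.68 in WT and 0 to 0.925 in Cd36 null intestine, and Gm1966 at 5.16 to 8.31 and 0 to 3.19. Both had too few reads for a test in enterocytes. There Gm1966 averaged 2.43 in WT and 0 in Mfge8 null, without overlap, and Gm4759 averaged 0.704 and 0.971, with overlap.

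The nearest tested gene below the cluster was Trim21, which encodes a cytosolic antibody receptor (11.1 ± 5.89, n = 4, against 5.97 ± 4.98, n = 5; log2 -1.04, limma adjusted p = 0.377). The nearest above it was Fam160a2, at 128 ± 12.4 (n = 4) against 137 ± 11.5 (n = 5; log2 0.10, limma adjusted p = 0.794). Inside the interval, the lncRNA Gm15133 (104315031 to 104324838), named after its values were seen, had 3.51, 6.24, 3.92 and 1.99 normalised reads in WT enterocytes. It was at 0 in all 5 Mfge8 null libraries, and in intestine at 0.96 in WT 1 and 0 in the other 6. The start of Gm15133 lies within Trim12a, which ends at 104315558. Trim6, a Trim gene beside the cluster that was also named after its values were seen, had similarly few reads. It was at 0.993 to 3.51 in WT and 0 to 4.28 in Mfge8 null enterocytes, with overlap. Of all 595 genes of chromosome 7 kept in both tables, 4 were below -1 in both experiments (Trim34a, Trim12a, Trim30d and Rps15a) and 6 were above 1 in both (Pla2g4c, Fut2, Hddc3, Crym, Gdpd3 and Ano1, named after their values were seen).

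**Figure D4:**
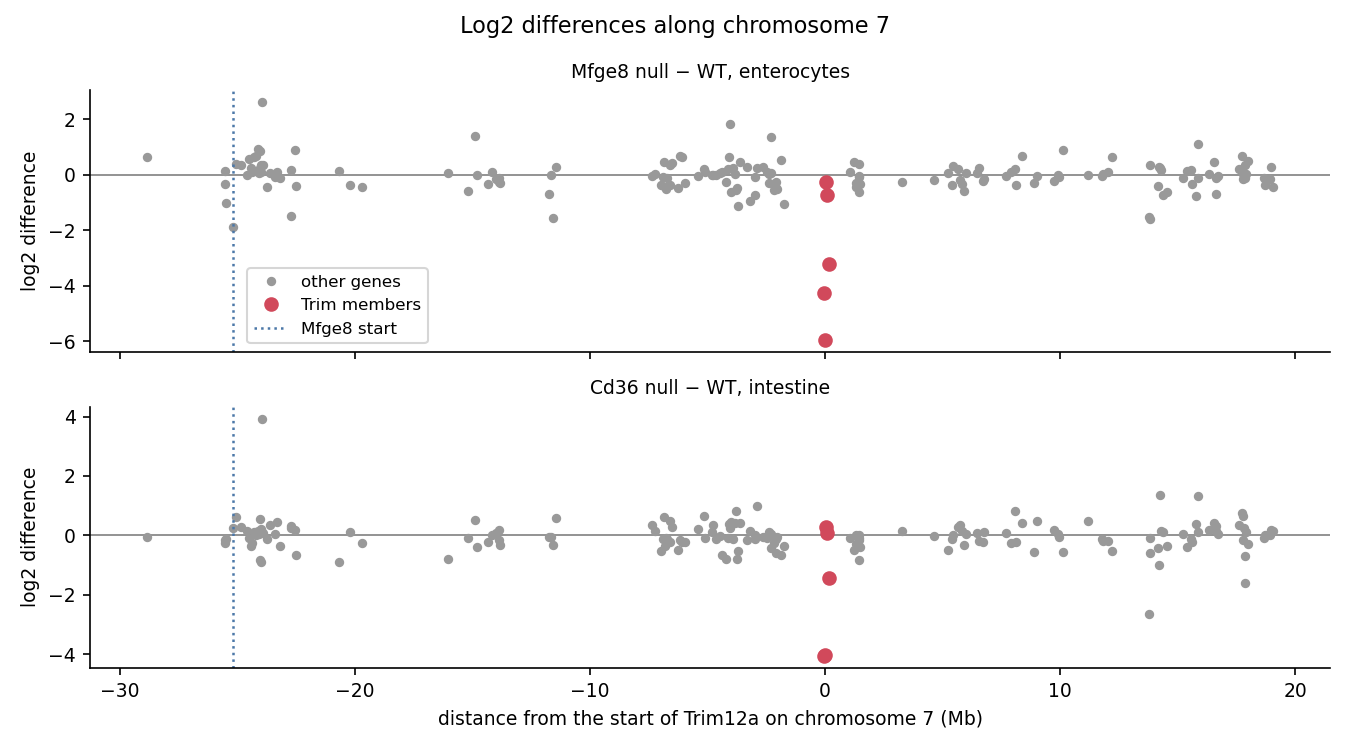
Log2(value + 1) difference of null minus WT for the 177 genes kept in both tables between -30 and 20 Mb of the start of Trim12a on chromosome 7, by distance (Mb), in enterocytes and in intestine; the dotted line marks Mfge8. Of the genes drawn, 4 are below -1 in both experiments: Trim34a, Trim12a, Trim30d and Rps15a.

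Of 60 other Trim genes with a row, 25 were tested in enterocytes, including the neighbour Trim21 and Trim28, both of chromosome 7. Among the 25, 0 passed limma's adjusted threshold, 1 had an unadjusted p under 0.05, edgeR called 0 and DESeq2 called 1 (Trim15). The log2 changes of the 25 ran from -1.04 (Trim21) to 0.74 with a median of 0.01. In intestine, 1 of 25, Trim59, was below -1 (14.7 against 5.35; log2 -1.36), and the median was -0.00.

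Genes that act with the family were described in the same tables. Of 33 tested interferon response genes, 2 rose in Mfge8 null enterocytes and 0 fell (median 0.12), where 1.58% of all tested genes rose. Usp18, which removes ISG15 and damps interferon signalling, rose from 20.6 ± 1.14 (n = 4) to 43.9 ± 6.24 (n = 5; limma adjusted p = 0.00791). Zbp1, a sensor of Z-form nucleic acid, rose from 20.3 ± 7.10 (n = 4) to 52.9 ± 14.1 (n = 5; limma adjusted p = 0.0104). In intestine, 9 of 33 kept genes were above 1 and 0 below -1 (median 0.46), where 1.18% of genes were above 1. Ifit1, an RNA-binding antiviral gene, was at 141 to 174 in WT and 330 to 353 in Cd36 null intestine, and at 112 ± 28.1 (n = 4) and 82.2 ± 33.5 (n = 5) in WT and Mfge8 null enterocytes (limma adjusted p = 0.401). Ddx60, a helicase of the antiviral response, averaged 221 and 454. In all, 22 of the 33 had every null library above every WT library, as 8.61% of kept genes did, and 1, the GTPase gene Gbp2, had every null library below (20.5 to 30.1 and 14.8 to 19). Intestine libraries were counted as 1 sample per genotype, so this non-overlap is no replicate check. Zbp1 overlapped in intestine (54.7 to 66.5 and 48 to 66), and Usp18 was higher there (13.5 to 20.7 and 31.5 to 38). Of the 5 members whose promoters hold the interferon core, Trim12a, Trim34a and Trim30d were lower in the same Cd36 null libraries, and Trim12c and Trim30a overlapped between genotypes.

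Downstream of the family, 25 genes of toll-like receptor and NF-kB signalling were tested in enterocytes and 0 passed (2 at an unadjusted p under 0.05, 0 by edgeR and 0 by DESeq2; median -0.00). The same held for 10 genes of nucleic acid sensing and restriction (0 passed by limma, edgeR or DESeq2, 1 at an unadjusted p under 0.05; median 0.21). Of 6 ubiquitin-conjugating partners, 0 passed by any of the 3 tools and 0 at an unadjusted p under 0.05 (median -0.04). In intestine, 0 genes of these lists passed 1 in either direction, with medians of -0.05, 0.04 and -0.02.

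The genes outside the cluster most like Trim12a over the 9 enterocyte libraries, by Pearson's r of log2(value + 1), were Fam103a1 (0.977), Ensa (0.968), Homer2 (0.959), Rragd (0.956) and Ghr (0.955). Among the members, r with Trim12a was 0.989 for Trim30d, 0.971 for Trim34a, 0.646 for Trim30a and 0.386 for Trim12c. All these values share the genotype difference and the libraries. In intestine, where Trim12a was at 0 in every Cd36 null library, Ensa was at 31 to 36.9 in WT and 31.5 to 40.5 in Cd36 null. Homer2, a scaffold protein gene of chromosome 7, was at 74.9 to 80 and 82 to 99.5 there. Homer2 starts at 81600481, which is 22.7 Mb below the start of Trim12a and nearer to Mfge8.

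Markers of other cell types also differed between the groups. The 6 B and plasma cell markers summed to 17.5 to 124 in WT and 206 to 501 in Mfge8 null enterocytes, with Cd79a at 0 throughout. Of the 4 tested there, limma called 1, Jchain, higher. The 8 T cell and intraepithelial lymphocyte markers summed to 1156 to 3398 and 3162 to 7391 in enterocytes, and to 704 to 923 and 603 to 623 in intestine. The 9 macrophage and dendritic cell markers overlapped in both, at 40 to 84.2 and 31.8 to 116 in enterocytes and 21.7 to 33.3 and 20.2 to 25.9 in intestine. The 5 stromal markers in intestine summed to 19.2 to 33.3 in WT and 9.95 to 11.7 in Cd36 null. Only 1 of them, Dcn, had enough reads to be kept there (log2 difference -1.13), so this sum rests on few reads. The B and plasma cell sum overlapped between genotypes in intestine (40.3 to 71.8 and 49 to 52.5). In intestine, 5 goblet cell markers (5393 to 5615 and 6538 to 6748), 4 enteroendocrine markers (232 to 254 and 325 to 344) and 5 markers of the proximal small intestine (4054 to 4320 and 4748 to 4920) were higher in every Cd36 null library. The 4 smooth muscle markers were higher too (0 to 1.04 and 2.13 to 2.78), but rest on so few reads that nothing is read from them. The sum of the 4 ileum markers was lower in Cd36 null intestine (976 to 1041 and 669 to 722). Of these markers 1, Fabp6, was below -1, and their median log2 difference was -0.44. Among enterocyte libraries, the ileum sum varied widely within each genotype (WT 939 to 9719, Mfge8 null 988 to 8527). The proximal sum varied there too (WT 16986 to 32641, Mfge8 null 9968 to 27280), and both sums overlapped between genotypes. By limma, 1 of 4 tested proximal markers was called lower and 1 of 4 tested ileum markers higher in Mfge8 null. The part of these cell types in the members' values was not tested.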

How the data were processed

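RNA of 16 mouse libraries was sequenced as 3' tags with a forward kit and a UMI module, per the labels' protocols. The submitters' processing notes list HISAT2 2.1.0 and HTSeq 0.91 with the build mm10, beside DESeq2 2.11.40 and Trimmomatic 0.38.1; their order, settings, UMI use and strand setting are not given in the sources used here. The authors deposited a normalised signal in 2 separately normalised tables. In each library 100% of values were whole multiples of a step to within 1e-06, so reads were recovered; for WT 4 and null 3 of the enterocyte table the step is less certain. Intervals and floors cover counting error only.

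Low genes were dropped: 9432 genes reached 5 in 4 or more enterocyte libraries, and 9314 did so in 3 or more intestine libraries. Enterocytes were compared by a 2-sided limma-trend fit (limma 3.58.1, R 4.3.3) of log2(value + 1), with p-values adjusted after Benjamini and Hochberg and a threshold of 0.05. On that scale the pseudocount of 1 makes changes of low genes look smaller. Nothing in the labels says that each library is a separate mouse, so p-values measure the spread between libraries. Intestine values are differences between genotypes with no replicate check; past 1 on the log2 scale counts as called. edgeR 4.0.16 and DESeq2 1.42.0 on recovered reads were alternatives and called 317 and 430 genes. The fit was tested on simulated data.

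The members and lists were chosen with earlier results of these data known. Named genes were all members, at most 4 called genes per pathway list, at most 6 called neighbours within 5 Mb or other Trim genes, the nearest tested gene on either side, and the 5 most correlated with Trim12a. Ifit1, Ddx60, Trim15, Trim59, Gbp2, Rps15a, Cd36, Dcn, Jchain and Fabp6 were named after their values were seen.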

Additional observations from a re-analysis of the deposited data

Results flagged for a closer look

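Of 16 groups of member values examined, 5 held a library far from the others of its group, where chance flags about 1 in 20 for continuous values. In 3 of the 5 all other libraries were at 0, so that any read is flagged and that rate does not apply. Trim12a was at 1.96 normalised reads in Mfge8 null 1, against 0 in the other null enterocyte libraries. Trim34a was at 1.07 in Mfge8 null 4 and Trim34b at 1.1 in Mfge8 null 2, against 0 in the others, so each of these rests on 1 or 2 reads. Trim12c was at 222 in Mfge8 null 3, against 119 to 139 in the other null libraries. In WT intestine, Trim12a was at 9.24 in WT 4, against 17.7 to 18.6 in the others.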

How the results depend on the processing

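Trim12a, Trim30d and Trim34a kept their call as lower in Mfge8 null enterocytes under every alternative run, except that Trim34a was not tested when values of at least 20 were required, where 2 of 4 members were called. The members were chosen from this contrast, so their calls describe the fits and add no support. The sizes for the members near 0 depend on the scale. Trim12a moved from -5.94 to -6.78 and -3.91 with pseudocounts of 0.5 and 5, to -7.21 with edgeR, -7.55 with DESeq2 and -6.94 with edgeR without the 2 libraries of uncertain step, an alternative chosen after seeing the data. Trim34a moved from -4.27 to -5.11, -2.34, -6.09, -6.31 and -5.83 under the same settings. In intestine, pseudocounts of 0.5 and 5 gave -4.99 and -2.04 for Trim12a and -5.02 and -2.06 for Trim34a. Leaving out 1 library gave -4.26 to -3.95 and -4.26 to -3.97, with -4.26 for both without WT 4. Over all genes, 149 rose and 154 fell. DESeq2 gave 227 higher, and leaving out 1 library gave 77 to 198 higher and 63 to 190 lower. A regional score as a covariate gave 82 higher and 72 lower. This score is 1 value per enterocyte library, and its make-up is not given here. Among WT libraries it was lowest in WT 4 (0.76) and highest in WT 1 (3.98). Among Mfge8 null libraries it was lowest in null 5 (-0.93) and highest in null 4 (3.09), so the genotypes overlapped. Intestine genes past 1 numbered 227, and 279 and 90 with pseudocounts of 0.5 and 5.

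Replicate numbers do not pair the enterocyte samples: the correlations of same-numbered libraries were -0.12, -0.0744, 0.214 and 0.0911. The fit with a replicate block also leaves out null 5, which has no partner; it called 118 genes higher and 114 lower, against 102 and 97 without null 5 and without the block. The 3 members were called in both fits, which is likewise a description only. Gdpd5 and Mfge8 were not called in either, and Usp18 and Zbp1 were called without null 5 but not with the block. The regional score also ended the calls of Zbp1, Gpx2-ps1, Gdpd5, Cd36 and Mfge8. Depth limits Trim30b and Trim34b, which were at or under the floor of 3 reads in both tables.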
